A study of Mus musculus with 6 samples.

Results

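The genes described here are 34 mouse receptor tyrosine kinases other than Pdgfra, chosen by gene symbol from 17 receptor families and matched to the array's probe annotation. Of the 34 symbols, 33 had at least 1 probe and 29 were bright enough to be tested, among 17422 genes tested in all. The list does not cover the whole class: Kit, Kdr, Igf1r and the ephrin receptors are among those outside it. Erbb3, the neuregulin receptor that pairs with Erbb2, was listed for no probe in the annotation used and was not analysed here. The RNA came from oligodendrocyte precursor cells, the dividing glial progenitors that give rise to myelinating oligodendrocytes, prepared from the forebrain of Jcl:ICR mouse embryos at stage E15.5. All samples were grown with FGF2 and PDGF-AA, both of them ligands of receptor tyrosine kinases. The 3 control samples were infected with a control retrovirus and the 3 knockdown samples with a retrovirus that lowers Chd7, a chromatin remodeller, and all were harvested 3 days later. Each sample was read on its own single-colour Cy5 array. The labels do not say whether replicates were separate cultures, what share of cells was infected, or what the control virus carried, and a p-value here reflects the spread among the arrays alone, possibly a technical spread.

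A typical receptor tyrosine kinase is a membrane protein that binds a growth factor outside the cell, acts as a pair of receptors and phosphorylates itself and adaptor proteins inside. Some listed members depart from this, such as the pseudokinases Ryk and Ptk7, Erbb2, which binds no ligand, and the collagen receptors Ddr1 and Ddr2. The adaptors pass the signal to the RAS-ERK and PI3 kinase pathways. In oligodendrocyte precursors, PDGF-AA acting on Pdgfra drives division and survival, FGF2 acting on the FGF receptors holds cells in the dividing state, and neuregulins, neurotrophins and the TAM ligands have been tied to precursor survival or to myelination.

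Chd7, the knockdown's target, was lower in the knockdown with no overlap of arrays, at a log2 fold change of -0.88 (95% interval -1.07 to -0.69). That is the value of its brighter probe. A second Chd7 probe, above the limit on 6 arrays, read -0.48 (95% interval -0.64 to -0.33). Pdgfra, the reference receptor here, read 10.65, 10.37 and 10.61 on the log2 scale on control arrays 1 to 3, against 9.27, 9.04 and 9.23 on knockdown arrays 1 to 3. The knockdown arrays kept 39.0% of the control signal of Pdgfra. Its log2 fold change had a 95% interval of -1.58 to -1.14. In bulk RNA, fewer cells of a type and less RNA per cell cannot be told apart. Between 87.0% and 89.8% of probes on an array lay above the detection limit, which was the mean of the blank spots plus 2 SD. With 3 arrays a group, precision is limited by that number.

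None of the 29 listed and tested receptors fell, while Kit, which is not on the list, did. Kit was added after its values were seen, and the receptors outside the list were not surveyed. Others outside it did not all fall. The log2 fold changes of Kdr, Epha4 and Ephb6 were 0.03, 0.16 and -0.0048 (adjusted p = 0.834, 0.319 and 0.941 in limma). Of the 29, 1 rose (Ntrk3), 0 fell and 28 did not pass at an adjusted p below 0.05 in limma with Benjamini-Hochberg adjustment over all genes. At an unadjusted p below 0.05 there were 5 higher and 0 lower, against 11.9% and 12.7% of all genes. Over all genes 9.63% passed, 4.48% higher and 5.14% lower, so a count of 1 in 29 (3.45%) lies below the share of all genes. In the authors' own processed values, where 356 genes passed upward and 736 downward (6.47% of 16888, 2.11% upward and 4.36% downward), 0 of the 27 receptors with a value on every array passed. The log2 fold changes of the 29 receptors ran from -0.03 (Musk) to 0.20 (Egfr), with a median of 0.02 against 0.00077 for all genes. Within 0.1 of 0 lay 22 of the 29, against 68.3% of all genes. Tested probe by probe, 8.83% of 20997 probes passed, 4.03% upward and 4.8% downward, and Ntrk3 was again the receptor that passed.

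**Figure D1:**
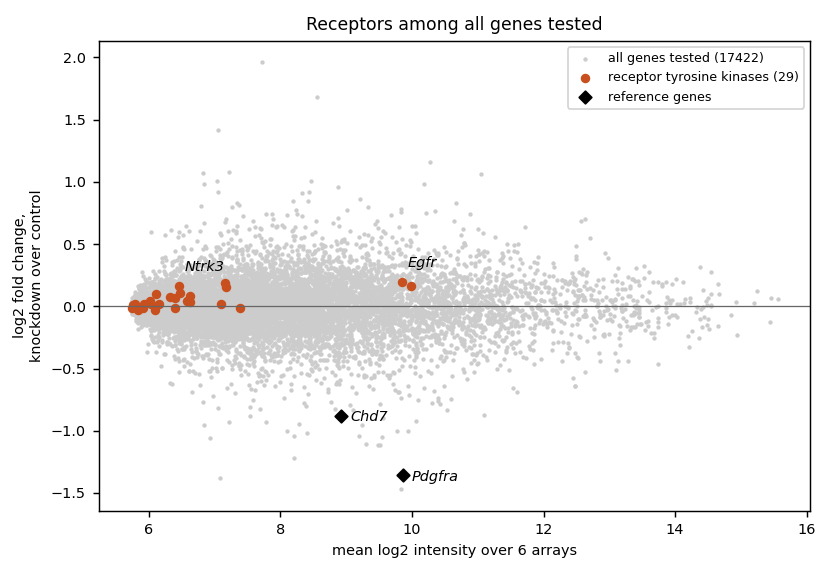
Mean log2 intensity over 6 arrays (x) against the log2 fold change of knockdown over control (y) for all 17422 genes tested (grey), the 29 receptors (orange) and the reference genes Chd7 and Pdgfra (black diamonds). The receptors lie between -0.03 and 0.20, while Pdgfra lies at -1.36 and Chd7 at -0.88.

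How much change these arrays leave room for depends on how bright a probe was. In the normalized values an offset of 50 is added to each signal before the logarithm, which damps the change of dim probes. The authors' processed values carry no such offset: they subtract roughly the blank mean from the spot signal and are scaled so that each array's median is 25. Both are therefore given for the receptors as a set, and both for some of the receptors described singly below. For the 29 receptors in the normalized values, the 95% intervals of the log2 fold change reached no lower than -0.27 (Flt1) and no higher than 0.38 (Egfr). In the authors' values, taken as log2(value + 1), the intervals of 27 receptors ran no lower than -0.73 and no higher than 0.87, both limits set by Flt1. The interval of Pdgfra on that scale was -1.77 to -1.21, which overlaps none of those 27. Kit, outside the list, had an interval of -2.19 to -1.35 there, which does overlap that of Pdgfra. Erbb2 and Fgfr4 lacked an authors' value on 1 array each and have no interval on that scale.

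**Figure D2:**
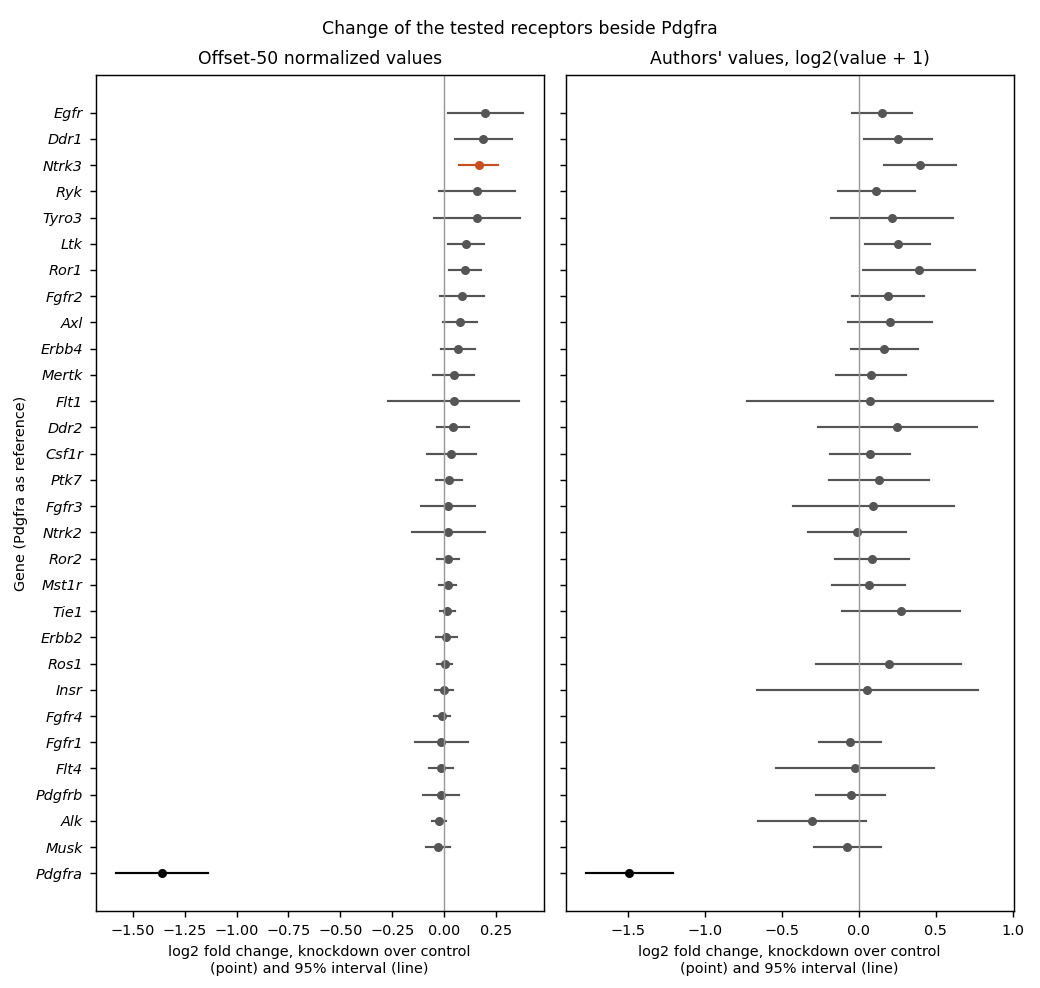
Log2 fold change of knockdown over control with its 95% interval for the 29 tested receptors and Pdgfra, in the normalized values (left) and in the authors' values (right, 27 receptors). Ntrk3, in orange, is the receptor that passed in the normalized values. The interval of Pdgfra lies apart from those of the receptors plotted on both scales; Kit is not plotted.

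Detection divided the receptors into 3 sets. Probes of 15 tested receptors were brighter than the median gene probe, 14 tested probes were dimmer, and 4 were not tested because they passed the limit on fewer than 3 of the 6 arrays. A probe's brightness also depends on its sequence, so it does not rank receptors by abundance. The 4 untested genes were Met, the receptor for hepatocyte growth factor, Tek, the angiopoietin receptor, Ret, the signalling receptor for GDNF, and Flt3, a cytokine receptor of blood progenitors. Met and Tek passed the limit on 0 arrays, and Ret and Flt3 on 1 each.

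**Figure D3:**
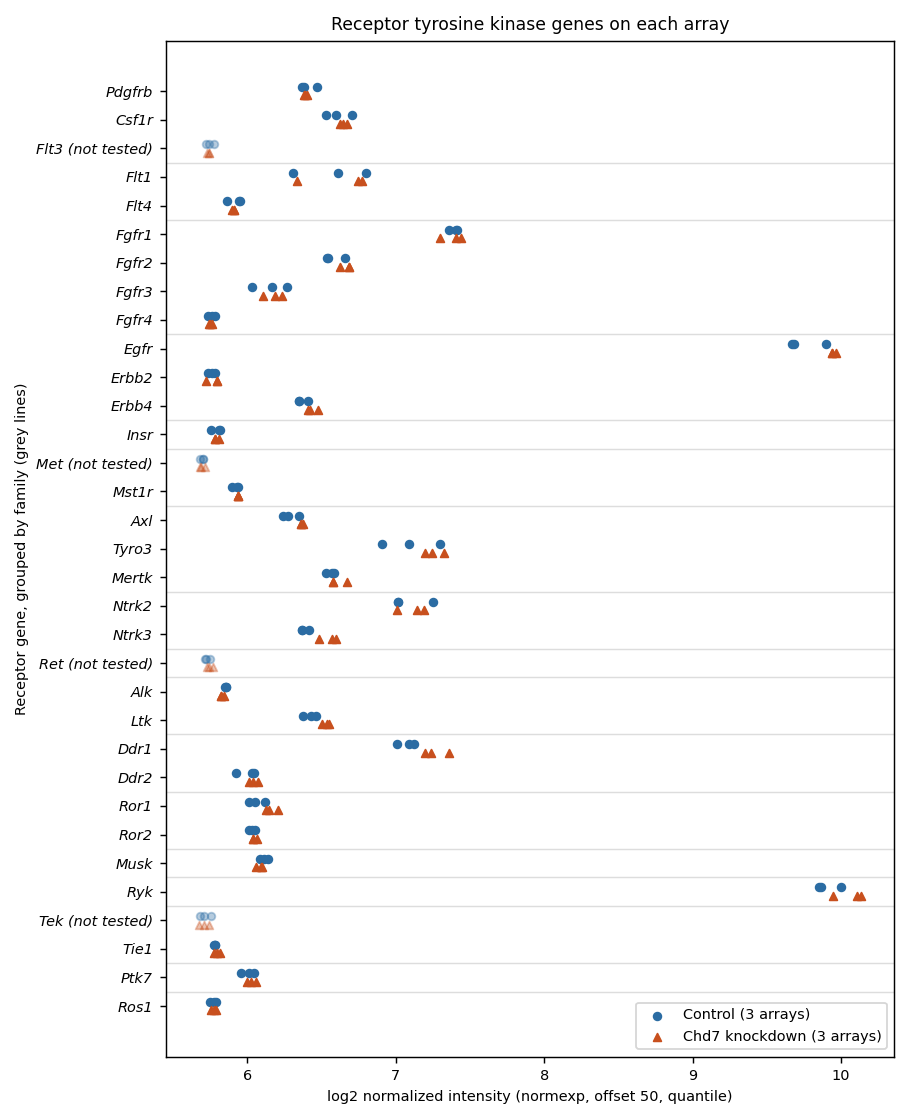
Log2 normalized intensity of the 33 receptors with a probe on each of 3 control arrays (blue circles) and 3 knockdown arrays (orange triangles), grouped by family. Pale points mark the 4 receptors too dim to test. Egfr and Ryk have the brightest probes, and for most receptors the points of both groups overlap.

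The neurotrophin receptors held the only call. Ntrk3 encodes TrkC, the receptor for neurotrophin-3, a factor known to act on the division and survival of oligodendrocyte precursors. The log2 intensity of control replicates 1 to 3 was 6.41, 6.37 and 6.37, that of knockdown replicates 1 to 3 was 6.59, 6.48 and 6.57. All knockdown arrays lay above all control arrays, with means of 6.38 ± 0.026 (SD, n = 3) for the controls against 6.55 ± 0.0586 (SD, n = 3). The log2 fold change was 0.17 (SE 0.0414, adjusted p = 0.0377 in limma), or 112% of control. The authors' values for Ntrk3 were 25, 23 and 23 on the control arrays, against 35, 28 and 32 on the knockdown arrays. On that scale the change was larger, 0.40 in log2 (95% interval 0.17 to 0.63), but missed the threshold (adjusted p = 0.0615 in limma). The call was also lost without control replicate 2 (limma adjusted p = 0.112), control replicate 3 (0.0912), knockdown replicate 1 (0.132) or knockdown replicate 3 (0.109). Arrays differed in the slope relating their scanner gains, and with that set as a block the limma adjusted p of Ntrk3 was 0.0838. Within the sets, which hold 2 arrays of one condition and 1 of the other, its log2 fold change was 0.09 and 0.21.

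Ntrk2, which encodes TrkB, the receptor for BDNF, did not pass. It read 7.25, 7.02 and 7.02 on the control arrays, against 7.19, 7.01 and 7.14 on the knockdown arrays, so the groups overlapped. The log2 fold change was 0.02 (95% interval -0.16 to 0.19).

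The FGF receptors, which receive the FGF2 of the medium, did not pass. Fgfr1 read 7.36, 7.41 and 7.41 on control arrays 1 to 3, against 7.41, 7.44 and 7.30 on knockdown arrays 1 to 3. Its log2 fold change was -0.01 with a 95% interval of -0.14 to 0.12 (-0.26 to 0.14 in the authors' values). Changes of the size seen for Pdgfra lie outside this interval. Fgfr2, the form tied to the later oligodendrocyte lineage, read 6.66, 6.54 and 6.55 on the control arrays, against 6.68, 6.69 and 6.63 on the knockdown arrays. Its log2 fold change was 0.09 (95% interval -0.02 to 0.19), and control replicate 1 fell among the knockdown arrays. Fgfr3, an early progenitor and astrocyte receptor, read 0.02 (95% interval -0.11 to 0.15, and -0.43 to 0.62 in the authors' values). Fgfr4 passed the limit on 3 arrays and read -0.01, a value at the floor of the scale.

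Among the EGF and neuregulin receptors, Egfr had the highest positive value of all 29 receptors, without passing. Egfr responds to EGF and TGF-alpha and marks dividing progenitors of the forebrain. It read 9.90, 9.68 and 9.67 on the control arrays, against 9.94, 9.97 and 9.94 on the knockdown arrays, so no arrays of the groups overlapped, but control replicate 1 lay closer to the knockdown arrays than to the other controls. The log2 fold change was 0.20 (95% interval 0.02 to 0.38, adjusted p = 0.165 in limma). Without control replicate 1 the log2 fold change was 0.27 and passed (adjusted p = 0.0492 in limma). A second Egfr probe, annotated to another RefSeq transcript of the gene, read 7.58, 7.98 and 7.74 on the control arrays, against 7.84, 8.08 and 7.76 on the knockdown arrays. The arrays of this probe overlapped, with a log2 fold change of 0.13 (95% interval -0.13 to 0.38). Erbb4, a neuregulin receptor, read 0.07 on its brighter probe (95% interval -0.02 to 0.15), and its other probe passed the limit on 1 array. Erbb2, which binds no ligand itself and serves the other family members as partner, passed the limit on 3 arrays and read 0.01.

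The discoidin-domain receptors bind collagen. Ddr1, which is expressed in the oligodendrocyte lineage, read 7.12, 7.09 and 7.01 on the control arrays, against 7.24, 7.36 and 7.19 on the knockdown arrays. The arrays did not overlap, and the log2 fold change was 0.19 (SE 0.0606, adjusted p = 0.0876 in limma). Ddr1 passed when the replicate number was entered as a block (adjusted p = 0.0461 in limma), a fit in which 14.8% of all genes passed, 7.38% upward and 7.43% downward, and 2 receptors rose and 0 fell, and with the scanner gain set as a block (0.0472). In the authors' values it read 0.26 (adjusted p = 0.158 in limma). Ddr2, the form of mesenchymal cells, read 0.04 (95% interval -0.03 to 0.12, and -0.26 to 0.77 in the authors' values).

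The TAM receptors bind Gas6 and protein S and are known for the uptake of dying cells and, for Tyro3, for myelination. Tyro3 read 6.91, 7.09 and 7.30 on the control arrays, against 7.32, 7.24 and 7.20 on the knockdown arrays. Control replicate 3 fell among the knockdown arrays and control replicate 1 lay far below them, and the log2 fold change was 0.16 (95% interval -0.05 to 0.36). Axl read 0.08 (95% interval -0.0046 to 0.16) and Mertk 0.05 (95% interval -0.05 to 0.15). None of the 3 passed.

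**Figure D4:**
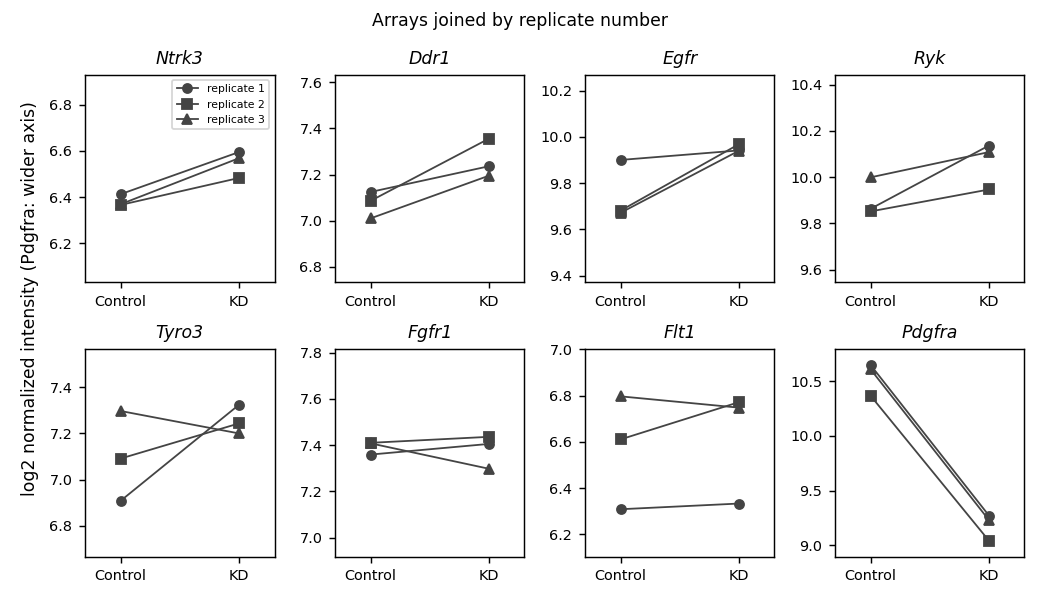
Log2 normalized intensity in control and Chd7 knockdown (KD) arrays, joined by replicate number, for 7 receptors and Pdgfra. Ntrk3, Ddr1, Egfr and Ryk were higher in the knockdown in 3 of 3 pairs and Tyro3, Fgfr1 and Flt1 in 2 of 3; Flt1 separates by replicate number, with both arrays numbered 1 lowest.

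Receptors and co-receptors of the Wnt pathways formed another group. Ryk, a pseudokinase that binds Wnt proteins, had authors' values of 674, 671 and 783 on the control arrays, against 853, 692 and 761 on the knockdown arrays. Knockdown replicates 2 and 3 were below control replicate 3, and in the normalized values the log2 fold change was 0.16 (95% interval -0.02 to 0.34). Ror1, a receptor for Wnt5a, read 6.01, 6.05 and 6.12 on the control arrays, against 6.21, 6.13 and 6.14 on the knockdown arrays. Its log2 fold change was 0.10 (adjusted p = 0.108 in limma), with 0.03 on its dimmer probe. In the authors' values Ror1 read 9, 11 and 13 in the controls against 17, 13 and 14. The log2 difference was 0.39 with a 95% interval from 0.03 to 0.75, and it did not pass (adjusted p = 0.188 in limma). Ror2, the other Wnt5a receptor, and Ptk7, a pseudokinase of planar cell polarity, both read 0.02.

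The class of Pdgfra also holds Pdgfrb, Csf1r, Flt3 and Kit, and its measured members differed. Kit, the receptor for stem cell factor, is outside the list and was added after its values were seen. It gave log2 intensities of 6.67, 6.49 and 6.76 on control arrays 1 to 3 and 6.05, 6.06 and 5.96 on knockdown arrays 1 to 3, with no overlap. Its log2 fold change was -0.62 (SE 0.0642, adjusted p = 0.00138 in limma), and its authors' values were 38, 29 and 43 against 11, 11 and 8. Kit passed without any single array, with limma adjusted p up to 0.00778, and missed the threshold only within one gain set (0.0916), among the 23 alternatives run. Pdgfrb, the receptor for PDGF-BB on pericytes, had authors' values of 24, 23 and 28 on the control arrays, against 25, 24 and 23 on the knockdown arrays, and the groups overlapped. Its normalized log2 fold change was -0.02 with a 95% interval of -0.10 to 0.07 (-0.28 to 0.17 in the authors' values). Csf1r, the receptor of microglia for CSF1 and IL-34, read 6.71, 6.60 and 6.53 on the control arrays, against 6.62, 6.65 and 6.67 on the knockdown arrays, giving a log2 fold change of 0.04. In the gene order of the RefSeq table for GRCm38.p6, Pdgfrb and Csf1r are direct neighbours, while Flt3 and Flt1 have 1 protein-coding gene between them, as do Ltk and Tyro3. This search covered the listed receptors and Pdgfra only. Kit and other receptors outside the list were not in it, so it does not show whether Kit lies near Pdgfra.

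The VEGF receptors Flt1 and Flt4 did not pass, and Flt1 varied more among replicates than the other 28 receptors. Flt1, which binds VEGF-A and placental growth factor, read 6.31, 6.61 and 6.80 on control arrays 1 to 3, against 6.33, 6.77 and 6.75 on knockdown arrays 1 to 3. Both arrays numbered 1 were lowest. The pooled SD of Flt1 was 0.247, larger than that of 98.2% of the genes tested, and its log2 fold change was 0.05 (95% interval -0.27 to 0.36). Of the 10 endothelial markers, 7 were tested and Cldn5 lay below the limit on all arrays. Their summed signal above the blanks was 74.0 and 77.5 on the arrays numbered 1 and 74.4 to 94.1 on the other 4. The summed signal of the pericyte and fibroblast markers did not split this way, with 230 and 306 on the arrays numbered 1 and 273 to 345 on the others. A single member picked after its values were seen, the smooth muscle gene Acta2, was lowest on the arrays numbered 1, at 38.0 and 42.3 above the blanks against 71.7 to 90.1, while Anpep was not, at 112 and 158 against 103 to 137. The summed markers of differentiating oligodendrocytes were lowest on the arrays numbered 1, at 913 and 1003 against 1134 to 1453. Their part in the values of Flt1 was not tested. Flt4, the VEGF-C receptor, read -0.02 (95% interval -0.07 to 0.04, and -0.54 to 0.49 in the authors' values).

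The remaining receptors did not pass, and all but Ltk had probes dimmer than the median. Ltk, the leukocyte tyrosine kinase, read 6.43, 6.46 and 6.38 on the control arrays, against 6.50, 6.53 and 6.55 on the knockdown arrays, giving a log2 fold change of 0.11 (adjusted p = 0.122 in limma) with no overlap. Its relative Alk, a receptor of developing neurons, was the only tested receptor whose knockdown arrays all lay below the controls. Its authors' values were 5, 4 and 4 on the control arrays, against 4, 3 and 3 on the knockdown arrays, which is a difference of about 1 unit near the detection limit, and its log2 fold change was -0.03 (adjusted p = 0.337 in limma). Insr, the insulin receptor, read -0.0011 (95% interval -0.05 to 0.04) and passed the limit on 5 arrays. Musk, the agrin-dependent receptor of the neuromuscular junction, read -0.03. Mst1r, the receptor for macrophage-stimulating protein, and Tie1, an endothelial partner of Tek, both read 0.02, and Ros1 read 0.0027. The authors' values of the dimmest of these leave room for a change of moderate size. Their 95% intervals ran from -0.66 to 0.77 for Insr and from -0.28 to 0.67 for Ros1. For the brighter probes of Mst1r and Musk the intervals were narrower, at -0.17 to 0.30 and -0.29 to 0.14.

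Counted together, 22 of the 29 tested receptors (75.9%) had a positive log2 fold change, against 50.6% of all genes. With median scaling 20 of 29 were positive (69.0%, against 45.2% of all genes), and in the authors' values 21 of 27 (77.8%, against 47.3%). The share was lowest, at 19 of 29 (65.5%), without control replicate 3, without knockdown replicate 2 and within one gain set. Of all genes, 49.6%, 50.9% and 48.7% were positive there. Among receptors above the limit on all 6 arrays the share was highest, at 80% (against 50.8%). Some positive values lay close to 0, such as 0.0027 for Ros1. Groups without overlap were found for 29.9% of all genes. The knockdown arrays lay above all control arrays for 7 receptors (24.1%, against 14.5% of all genes) and below them for 1 (3.45%, against 15.3%). The 7 were Ntrk3, Ddr1, Egfr, Ltk, Ror1, Axl and Erbb4. These counts are descriptions without a test, and receptors measured on the same arrays are not independent.

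Ligands, co-receptors and adaptors were counted in the same way. Of 63 genes listed as ligands, 57 had a probe and 53 were tested. Among these, 3 rose and 0 fell (5.66%, against 9.63% of all genes), with a median of 0.0039. With the replicate block 4 rose and 2 fell. Pdgfc, a ligand of Pdgfra, read 6.70, 6.65 and 6.74 on the control arrays, against 7.19, 6.96 and 7.02 on the knockdown arrays, so its log2 fold change came to 0.36 (SE 0.0646, adjusted p = 0.011 in limma). Angpt2, a ligand of the Tek receptor, rose by 0.47 (SE 0.0605, adjusted p = 0.00274 in limma), and its authors' values went from 19, 18 and 22 to 50, 35 and 44. Tek itself was below the limit on every array. Pros1, which encodes protein S, rose by 0.36 (adjusted p = 0.0265 in limma) on a probe that read 8.55, 8.70 and 8.43 on the control arrays, against 8.91, 8.88 and 8.98 on the knockdown arrays. Pros1 missed the threshold when control replicate 1, control replicate 3 or any knockdown replicate was left out (adjusted p up to 0.0894 in limma), with median scaling (0.0712) and in the authors' values (0.0628). Gas6, the other TAM ligand, read -0.25 and did not pass (adjusted p = 0.13 in limma), but passed with the replicate number as a block (0.0230). Csf1, the ligand of Csf1r, read 0.28 (adjusted p = 0.0623 in limma), and passed with the block (0.0319). The messages of Pdgfa, -0.12 (adjusted p = 0.507 in limma), and of the neuregulin gene Nrg1, -0.13 (0.201), did not pass.

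Of 34 co-receptors and receptor modulators, all with a probe, 32 were tested, and 1 rose and 1 fell (6.25%, against 9.63% of all genes), with a median of -0.00037. With the replicate block 2 rose and 4 fell, in a fit where 14.8% of all genes passed. Gfra4, the co-receptor through which persephin acts on Ret, read 6.70, 6.59 and 6.59 on the control arrays, against 6.24, 6.26 and 6.29 on the knockdown arrays. It fell by 0.36 on the log2 scale (SE 0.0428, adjusted p = 0.00201 in limma), and its authors' values went from 40, 34 and 33 to 18, 19 and 20. Lrig1, a membrane protein that promotes the breakdown of ERBB receptors and Met, rose by 0.37 (SE 0.0910, adjusted p = 0.0378 in limma). It read 9.79, 10.12 and 9.97 on the control arrays, against 10.28, 10.38 and 10.33 on the knockdown arrays. Lrig1 did not pass with median scaling (limma adjusted p = 0.139), in the authors' values (0.11), with the gain set as a block (0.0677), or without control replicates 1 or 3 or any knockdown replicate (up to 0.124). Errfi1, an inhibitor of Egfr, read 0.0048 and did not pass.

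Of 46 adaptor and proximal signalling genes, 41 had a probe and were tested, and 5 rose and 2 fell (17.1%, against 9.63% of all genes), with a median of 0.0015. With the replicate block 7 rose and 4 fell. The kinases directly above ERK moved apart. Map2k1, which encodes MEK1, read 8.76, 9.11 and 8.95 on the control arrays, against 9.78, 9.77 and 9.65 on the knockdown arrays, giving a log2 fold change of 0.80 (95% interval 0.58 to 1.01, adjusted p = 0.00203 in limma). Map2k2, which encodes MEK2, read 9.88, 9.67 and 9.70 on the control arrays, against 9.28, 9.43 and 9.34 on the knockdown arrays, giving a log2 fold change of -0.40 (95% interval -0.58 to -0.22, adjusted p = 0.0173 in limma). In the authors' values Map2k1 read 0.81 and Map2k2 -0.49, and both passed. Map2k2 was lost without knockdown replicate 1 (limma adjusted p = 0.0705) or knockdown replicate 3 (0.057). Among the kinases above these, Araf read 0.21 (adjusted p = 0.0643 in limma) and Braf -0.06 (0.149).

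The list held 5 further calls. Pik3r1, a regulatory subunit of PI3 kinase, fell by 0.22 (adjusted p = 0.0269 in limma), and its catalytic partner Pik3ca read -0.20 without passing. The adaptor gene Crk rose by 0.29 (adjusted p = 0.0345 in limma) and Irs2, the insulin receptor substrate, by 0.40, at an adjusted p only just under the threshold that held in 8 of 23 alternatives. The docking protein genes Dok2 and Dok5 rose by 0.19 and 0.18 (adjusted p = 0.0473 and 0.0406 in limma). These 5 calls depended on single arrays. Pik3r1, Irs2 and Crk were lost without control replicates 2 or 3 or any knockdown replicate, Dok2 without any 1 of the 6 arrays, and Dok5 without any array but knockdown replicate 3 (adjusted p up to 0.103, 0.157, 0.115, 0.155 and 0.132 in limma). Irs2, Crk, Dok2 and Dok5 also missed the threshold in the authors' values, and Crk (0.205) and Irs2 (0.0995) with median scaling. Grb2 and Sos1, the core link from receptors to RAS, read 0.01 and -0.02 and did not pass.

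**Figure D5:**
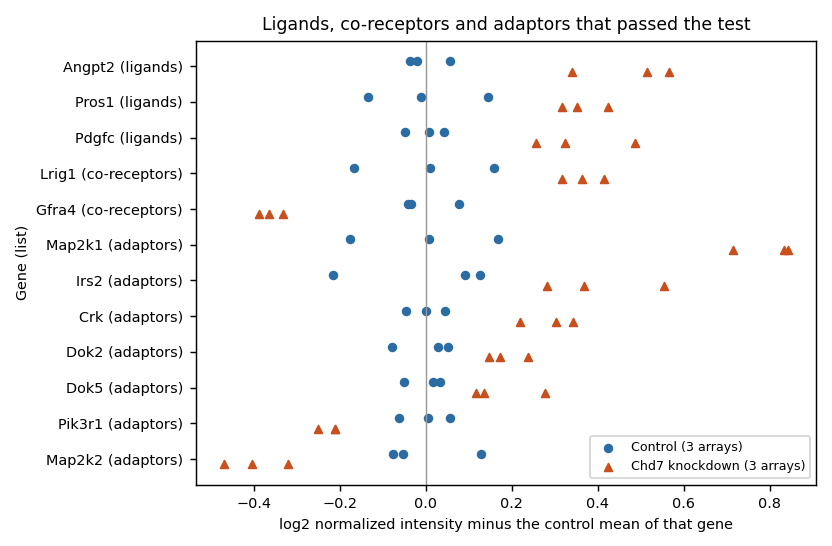
Log2 normalized intensity of the 12 ligand, co-receptor and adaptor genes that passed, each minus that gene's control mean, on 3 control arrays (blue circles) and 3 knockdown arrays (orange triangles). Map2k1 stands farthest to the right, with a log2 fold change of 0.80, and Map2k2 and Gfra4 farthest to the left, at -0.40 and -0.36.

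Markers of the labelled cell type were present and partly lower, and those of other cells were mixed. Of 7 tested precursor markers 5 fell (Pdgfra, Cspg4, Sox10, Olig2 and Lhfpl3) and 0 rose. The 5 make 71.4%, against 5.14% of all genes that fell. All 9 astrocyte markers were above the limit, and Fabp7, which radial glia also express, made up most of their summed signal. Of 11 tested neuron markers 3 fell (Dcx, Elavl3 and Map2), or 27.3% against 5.14% of all genes. Map2 only just passed (adjusted p = 0.0485 in limma), and 4 of the 11 had a positive log2 fold change. With the replicate block 1 neuron marker rose and 4 fell, against 7.38% and 7.43% of all genes. Microglial markers were dim, with a summed signal above the blanks of 157 to 181 in the controls and 160 to 206 in the knockdown over 13 genes, and Tmem119 below the limit on all arrays. The signal of the 11 pericyte and fibroblast markers was summed without scaling between arrays. It was 230 to 287 in the controls and 306 to 345 in the knockdown. Of their 10 tested members 0 passed. At an unadjusted p below 0.05 in limma 3 were higher, against 11.9% of all genes. The part of the precursor, neuron and pericyte markers in the changes of Ntrk3, Pdgfc, Angpt2 and the other genes above was not tested.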

How the data were processed

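Total RNA of 6 samples was amplified, coupled to Cy5 and hybridised to TORAY arrays, per the labels' protocols. The scanner files hold, per the file headers, an intensity for each spot: its median at 635 nm, combined from 3 gains by a least-squares fit. The authors' processed intensity values, deposited as a table, were linear in the spot signal with about the blank mean subtracted and a median of 25. No source gives this scaling, which was worked out from the numbers. Scanner and analysis software are not given in the sources used here.

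Background was corrected with normexp (offset 50) and no local background term, and signals were quantile normalized, averaged per probe and put on the log2 scale in limma 3.58.1 (R 4.3.3). A probe was tested if it exceeded the blank mean by 2 SD on at least 3 arrays, which left 20997 probes. The platform annotation gave 20690 of 23473 probes 1 symbol and 2783 none. A gene is represented by its brightest probe. The groups were compared with lmFit and eBayes (trend), two-sided, with Benjamini-Hochberg adjustment over 17422 genes. The procedure was tested on simulated data with noise independent between arrays. Changes larger than those of the receptors were placed in brighter genes only, so the simulation does not cover dim probes or smaller changes. Receptors were named with values on every array by a rule (a call, or groups that do not overlap with a log2 change of at least 0.2) that selects Ntrk3. The other receptors shown array by array were chosen after their values were seen. List genes were named where they passed, and the choice of other genes named as context was made with their values in view. The receptors and lists were chosen with earlier results of these data known.

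Both groups carry the replicate numbers 1 to 3. Arrays sharing a number departed from their group means together (r = 0.37, 0.39 and 0.22 across genes). Reading the numbers as pairs is inferred from the data. It is used in the fit with the replicate block and where arrays are joined by number. The main comparison had no block, so its adjusted p-values and intervals ignore any pairing. For Flt1 the SE of the log2 fold change was 0.139 in the main comparison and 0.0494 with the block. For Fgfr1 it was 0.0570 and 0.0573. Figures were drawn with matplotlib 3.10.9.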

Additional observations from a re-analysis of the deposited data

How the results depend on the processing

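The count of listed receptors that fell was 0 under every alternative run. The count that rose, 1 with the settings of the report, was 2 with the replicate block (Ntrk3 and Ddr1) and 2 at an adjusted p below 0.1. It was 0 in the authors' values with a pseudocount of 1 or 16, 0 without both arrays numbered 1, and 0 within either set of arrays sharing a gain slope, a split chosen after seeing the data. Leaving out 1 array gave 0 to 2. With the gain set as a block it was 1, Ddr1 in place of Ntrk3. Ntrk3 was positive under all 23 alternatives and passed in 13 (log2 fold change 0.09 to 0.40). Chd7 read -0.88 and -0.95 within the gain sets (limma adjusted p = 0.104 and 0.0595). Counts over all genes were 1677 in the report, 2581 with the block, which otherwise changed no receptor's call beyond Ddr1, 2687 at the looser threshold, 1092 and 1165 in the authors' values, 742 to 1462 without 1 array, 801 without both arrays numbered 1 and 39 within each gain set. The cause of these shifts was not tested, beyond the fewer arrays in the last ones. Signal over background limits the dim receptors.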
